A study of Arabidopsis thaliana with 15 samples.

Results

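How the UV-B response of Arabidopsis thaliana seedlings depends on the photoreceptor UVR8 was read from the difference between 2 responses, the change of each gene after 6 h of UV-B in wild type minus its change in the uvr8-6 mutant. The 12 of 15 libraries with these genotypes and light treatments, chosen by their labels, gave 4 groups of 3. These were uvr8-6 under UV-B, uvr8-6 in white light, wild type under UV-B and wild type in white light. The other 3 libraries, from the pif4-101 pif5-1 mutant in white light, served only to estimate the spread. Both genotypes were in the Col-0 background, and uvr8-6 is 1 mutant allele of UVR8. Every sample was RNA from 30 whole seedlings, 4 days old, raised on sucrose medium in continuous low white light at 1 fluence rate. UV-B came from narrowband tubes added to the white light under a filter that passes UV-B, and the white-light seedlings stood under a filter that removes it. Replicates came from independent plates, so the p-values measure the spread between plates.

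UVR8 is a protein that absorbs UV-B through its own tryptophans, leaves its dimer form and binds the ubiquitin ligase COP1. COP1 otherwise removes light-signalling transcription factors such as the bZIP proteins HY5 and HYH. With COP1 bound, these accumulate and act on genes for sunscreen flavonoids, photoprotection and DNA repair. RUP1 and RUP2, made in the same response, return UVR8 to its inactive dimer. In young seedlings the pathway is known for inhibiting stem elongation and for tolerance of sunlight.

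Depth ran from 19.27 to 29.62 M counted reads over the 12 libraries, and 20833 genes passed the filter on low counts and were tested. Levels are given as CPM, the usual count per size of library, with library sizes scaled by the TMM method, and they are not corrected for gene length. UVR8 (AT5G63860), the mutated gene, was at 15.6, 15.8 and 14.9 CPM in uvr8-6 under UV-B and 18.3, 13.8 and 19 CPM in uvr8-6 in white light, against 81.5, 94.2 and 94.3 CPM in wild type under UV-B and 109.3, 82.9 and 104.8 CPM in wild type in white light. The groups of the genotypes did not overlap, and reads over the whole gene do not show where the lesion lies. Its difference of responses was 0.00 ± 0.17 on the log2 scale. In white light 3 genes differed between uvr8-6 and wild type (0.0144% of those tested by edgeR, with 415 at an unadjusted p under 0.05). These were UVR8, MRD1 and HEI10, all lower in uvr8-6, and the other two were named after their values were seen. Some libraries stood apart. White-light replicate 1 of wild type had 0.446% of its reads on mitochondrial genes, against 0.0477% to 0.131% in the other 11. The iron reductase gene FRO5 was at 20.8 to 78.7 CPM in 5 libraries (uvr8-6 UV-B replicates 1 and 3, uvr8-6 white-light replicate 2, wild-type UV-B replicate 1 and wild-type white-light replicate 2) and under 0.5 CPM in the other 7. Summed markers of residual seed reached 56.0 CPM in UV-B replicate 2 of uvr8-6, with 2.61 CPM as the lowest of that group, 1.23 to 5.23 CPM in uvr8-6 in white light, 0.828 to 1.64 CPM in wild type under UV-B and 1.28 to 8.87 CPM in wild type in white light. Mesophyll markers were present in every library, and of the 34 tested markers of 6 cell types 1, of guard cells, had a called difference. Libraries were made with a stranded kit, but the sources used here do not say how strand was treated in counting, so reads of overlapping genes cannot be told apart. Whole seedlings mix cell types, so a change in cell make-up and a change in RNA per cell cannot be told apart.

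Bases upstream of the genes with the largest differences are shown first, because HY5 and its relatives are known to bind DNA at ACGT cores such as the G-box. The windows are the 250 bases before the annotated start of each gene in RefSeq's TAIR10.1, 5′ to 3′ on the strand of the gene. Capitals mark CACGTG (the G-box) or CACGTT in either orientation. The first 6 belong to the genes with the largest positive differences, in order of size, and the last 3 to those with the largest negative ones.
AT2G22590 (chr2:9592706-9592955, plus strand): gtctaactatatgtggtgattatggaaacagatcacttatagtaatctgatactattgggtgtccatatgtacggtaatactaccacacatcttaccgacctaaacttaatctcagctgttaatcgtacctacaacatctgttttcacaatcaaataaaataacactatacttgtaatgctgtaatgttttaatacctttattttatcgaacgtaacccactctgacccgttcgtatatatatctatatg
ELIP1 (chr3:8085670-8085919, minus strand): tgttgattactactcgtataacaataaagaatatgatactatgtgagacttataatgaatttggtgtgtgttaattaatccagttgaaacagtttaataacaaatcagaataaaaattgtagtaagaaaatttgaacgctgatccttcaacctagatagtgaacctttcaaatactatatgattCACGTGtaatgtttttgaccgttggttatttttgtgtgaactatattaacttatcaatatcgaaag
UGT84A1 (chr4:8850517-8850766, minus strand): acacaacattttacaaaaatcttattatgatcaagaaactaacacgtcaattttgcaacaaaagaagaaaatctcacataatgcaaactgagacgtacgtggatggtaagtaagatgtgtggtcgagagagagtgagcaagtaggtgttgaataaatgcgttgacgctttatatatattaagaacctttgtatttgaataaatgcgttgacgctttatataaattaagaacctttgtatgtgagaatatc
AT5G62210 (chr5:24987812-24988061, minus strand): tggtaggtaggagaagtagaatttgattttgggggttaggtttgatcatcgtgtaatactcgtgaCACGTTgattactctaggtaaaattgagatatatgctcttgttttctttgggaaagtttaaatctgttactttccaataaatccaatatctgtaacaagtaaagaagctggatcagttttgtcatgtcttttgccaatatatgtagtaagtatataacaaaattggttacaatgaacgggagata
GPX7 (chr4:15409828-15410077, plus strand): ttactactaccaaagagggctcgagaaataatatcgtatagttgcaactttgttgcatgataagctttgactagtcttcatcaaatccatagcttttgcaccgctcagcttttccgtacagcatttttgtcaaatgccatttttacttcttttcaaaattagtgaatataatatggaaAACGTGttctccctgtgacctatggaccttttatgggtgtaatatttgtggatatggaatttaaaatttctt
AT2G23910 (chr2:10177526-10177775, plus strand): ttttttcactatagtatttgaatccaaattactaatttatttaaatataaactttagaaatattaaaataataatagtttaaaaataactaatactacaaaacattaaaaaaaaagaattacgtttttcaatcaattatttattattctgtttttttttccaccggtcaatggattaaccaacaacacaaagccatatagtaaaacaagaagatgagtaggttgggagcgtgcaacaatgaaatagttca
AGP30 (chr2:14295354-14295603, minus strand): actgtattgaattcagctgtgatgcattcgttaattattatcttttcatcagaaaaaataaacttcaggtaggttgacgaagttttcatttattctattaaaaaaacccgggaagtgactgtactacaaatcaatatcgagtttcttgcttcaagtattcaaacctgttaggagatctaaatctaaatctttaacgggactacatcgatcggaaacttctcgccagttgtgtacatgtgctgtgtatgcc
PORA (chr5:21992815-21993064, minus strand): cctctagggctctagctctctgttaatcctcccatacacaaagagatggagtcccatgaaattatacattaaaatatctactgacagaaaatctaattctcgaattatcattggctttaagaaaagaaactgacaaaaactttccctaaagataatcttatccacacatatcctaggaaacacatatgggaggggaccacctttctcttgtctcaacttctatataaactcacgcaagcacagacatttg
AT4G00910 (chr4:391442-391691, minus strand): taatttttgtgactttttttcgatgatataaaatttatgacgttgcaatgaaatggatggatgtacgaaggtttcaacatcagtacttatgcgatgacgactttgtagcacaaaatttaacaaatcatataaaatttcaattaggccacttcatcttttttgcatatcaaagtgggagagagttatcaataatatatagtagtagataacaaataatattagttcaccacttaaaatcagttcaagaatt
ELIP1 held 1 CACGTG, 66 bases before its start. AT5G62210 held 1 CACGTT 185 bases before the start and GPX7 held 1 at 72 bases, which reads AACGTG on the printed strand. AT2G22590, UGT84A1, AT2G23910, AGP30, PORA and AT4G00910 held neither, which says only that these letters are not in these windows. Other ACGT cores were not marked, and the windows of AT2G22590, UGT84A1, AT2G23910 and AT4G00910 hold such cores. Both strands were searched in 20730 such windows. CACGTG was in 9.84% of the 1016 windows of genes with a positive difference, in 6.7% of the 358 with a negative one and in 7.35% of all tested genes. Counted per 1000 windows, CACGTG lay within the last 50 bases before the start 34.4 times among positive genes, 19.6 times among negative genes and 19.5 times among all genes. At 51 to 100 bases it lay 34.4, 16.8 and 28.8 times per 1000 windows of positive, negative and all genes. Farther out positive and all genes were close, at 14.8 and 15.9 times for 101 to 150 bases, 10.8 and 10.7 for 151 to 200 and 11.8 and 10.7 for 201 to 250. CACGTT was in 9.25%, 10.3% and 7.75% of the windows of positive, negative and all genes, and CACATG, a motif bound by several PIF proteins, in 11.9%, 18.4% and 11.2%. The higher CACATG share was not confined to negative genes. Among positive genes with a difference of 2 or more on the log2 scale it was also 18.4% (23 of 125 windows). For positive differences of 1 to 2 CACATG was in 41 of 346 windows, and for those under 1 in 57 of 545. TACGTA (4.92%, 6.7% and 4.83%) and GACGTC (1.38%, 2.23% and 2.39%) were counted in the same way. The shares are descriptions and were not tested.

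The difference of the responses was called for 1375 genes, 6.6% of the 20833 tested, by edgeR's quasi-likelihood test at an adjusted p under 0.05. It was positive, that is higher in the wild-type response, for 1016 genes (4.88%) and negative for 359 (1.72%). Of these, 471 positive and 193 negative differences were at least 2-fold. In the plot of both responses the called positive genes lie above the diagonal and the called negative genes below it, and 545 of the 1016 positive differences were under 1 on the log2 scale. Of the 1375 genes 1280 (93.1%) were called in wild type and not in uvr8-6. Among these the median response of the 963 positive genes was 0.17 in uvr8-6 and 1.12 in wild type on the log2 scale, and that of the 317 negative genes was -0.06 in uvr8-6 and -1.12 in wild type. All 3 wild-type UV-B libraries lay above the other 9 for 999 of the 1016 positive genes (98.3%, and 15.8% of all tested genes) and below them for 327 of the 359 negative genes (91.1%, and 10.8% of all). These medians and counts describe genes chosen on the same libraries and are no separate evidence.

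**Figure D1:**
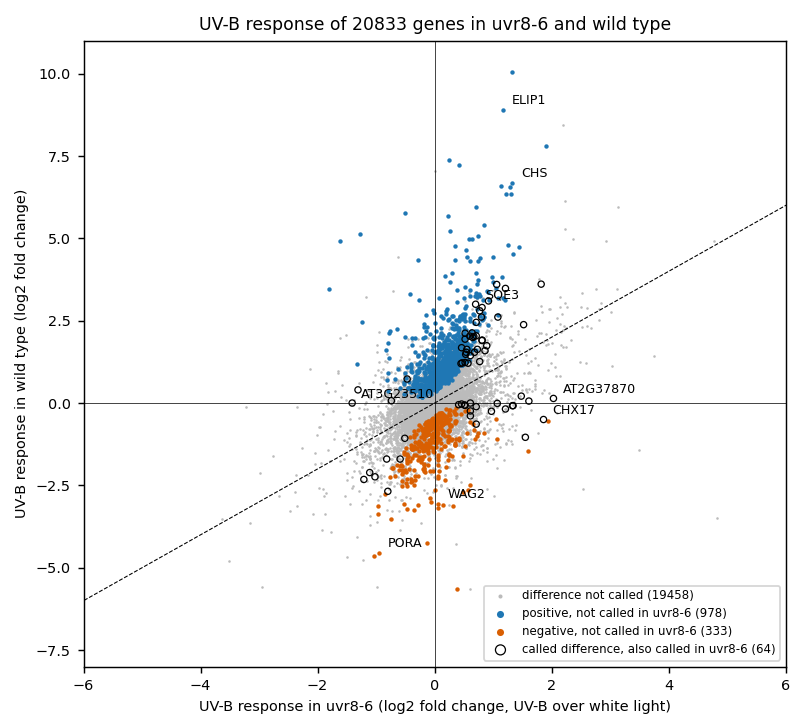
Each point is 1 of 20833 tested genes, with its log2 fold change of UV-B over white light in uvr8-6 on the x axis and in wild type on the y axis. Coloured points have a called difference (978 positive in blue and 333 negative in orange), open circles are the 64 that were also called in uvr8-6, grey points were not called, and the dashed line marks equal responses.

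Responses in uvr8-6 were set beside those of wild type, for genes whose choice by these same calls already fixes a small share. For the 565 positive genes called in wild type alone with a response of at least 2-fold, the log2 response in uvr8-6 was a median of 18.0% of the wild-type one (quartiles 7.5% and 26.2%), and 80 went the other way. For the 177 negative genes so chosen the median was 11.7% (quartiles -2.3% and 22.7%), and 49 went the other way. A further 41 genes were called in both genotypes in the same direction, and all 34 that rose and all 7 that fell changed more in wild type. The other patterns held 21 genes called in uvr8-6 alone, 2 called in opposite directions and 31 called in neither genotype. When each library was left out in turn, the first pattern held 87.8% to 96.6% of the called genes, while the 41 genes of the second became 8 to 93. By DESeq2, which called more genes in uvr8-6 (640 against 233), the first pattern held 85.8% of 1941 called differences and the second 166 genes. With the 5 libraries high in FRO5 left out, 907 differences were called, of which 642 were among the 1375, and 86.3% of the 907 were called in wild type alone.

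The direction of the balance rests on the scaling, and the number of calls on the libraries. The positive share was 73.9% with TMM and 72.8% of 1338 calls with RLE, another scaling method. It was 56.1% of 1318 calls with upper quartile scaling and 46.8% of 1196 calls with library totals alone. Upper quartile scaling and library totals moved the median difference of all genes from 0.01 to -0.08 and -0.15 on the log2 scale. The TMM factors were lowest in wild type under UV-B (0.863 to 0.945, against 0.946 to 1.11 in the other 9 libraries).

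**Figure D2:**
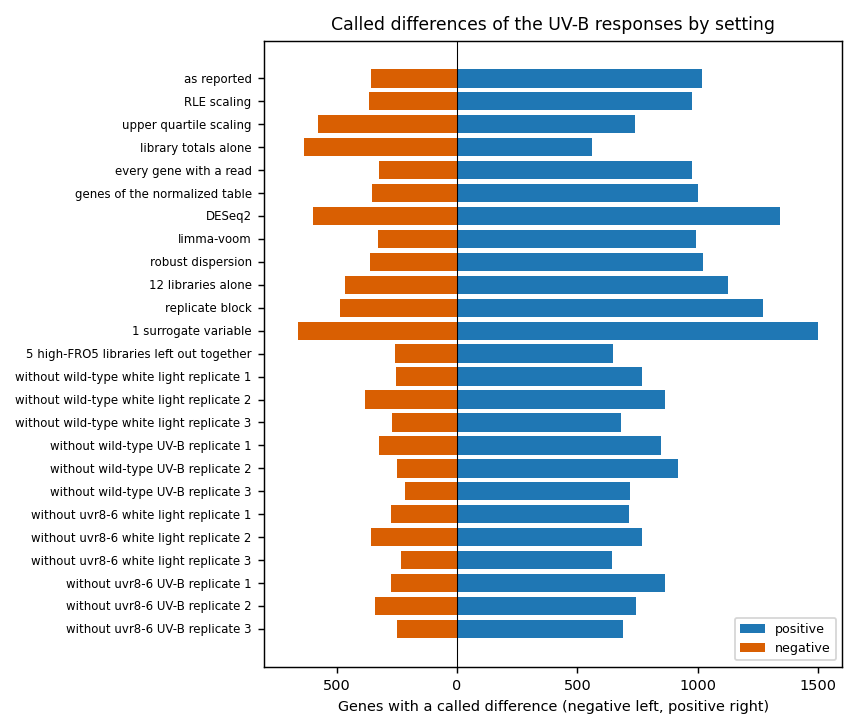
Bars give the number of genes with a called difference, negative to the left and positive to the right, for the fit as reported and 24 alternatives. The total is lowest without uvr8-6 white-light replicate 3 (877) and highest with 1 surrogate variable (2156), and only with library totals alone do negative calls outnumber positive ones.

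A difference that was not called does not show a shared response. Of the 1781 genes with a wild-type change of 2-fold or more, 783 were called for the difference. For 959 of the others the 95% interval of the difference reached beyond 2-fold, so these 3 replicates could not settle them, and for 39 the interval lay within 2-fold. Among the 71 genes called and changed at least 2-fold in the same direction in both genotypes, 8 had a called difference and 14 an interval within 2-fold. The median half-width of the interval over all genes was 0.47 on the log2 scale.

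**Figure D3:**
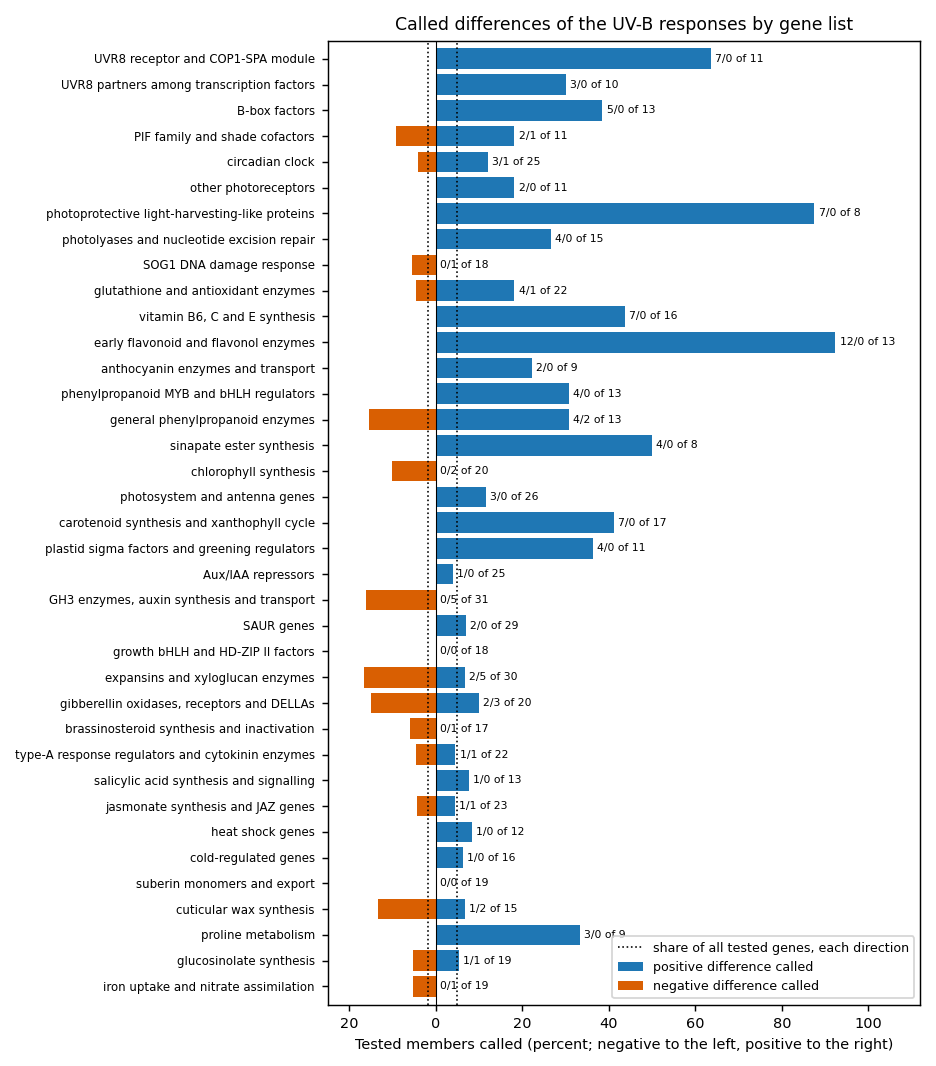
Bars give the percent of tested members with a called positive (right) or negative (left) difference for 37 gene lists, with counts as positive/negative of tested beside them. Dotted lines mark the shares among all tested genes, 4.88% positive and 1.72% negative, and the flavonoid, light-harvesting-like and receptor lists stand farthest to the right.

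The 37 lists held 664 genes, of which 627 were tested and 129 had a called difference. They are described in order of role, many with the median difference of their tested members, beside 0.013 for all genes. In the receptor and COP1-SPA list 7 of 11 members had a positive difference and none a negative one (median 0.49). In uvr8-6 edgeR called 0 of the 11, beside 1.12% of all genes, as did DESeq2 and limma-voom. By edgeR 6 of the 11 were at an unadjusted p under 0.05, beside 2720 of all 20833 genes. The 0 therefore does not show that these genes had no response in uvr8-6. RUP2 (AT5G23730), a repressor of UVR8, was at 22.9, 18.8 and 19.6 CPM in uvr8-6 under UV-B and 13.8, 17.4 and 12.1 CPM in uvr8-6 in white light, against 175.4, 178.5 and 163.3 CPM in wild type under UV-B and 15.8, 26.8 and 13.9 CPM in wild type in white light. Its wild-type UV-B libraries lay far above the other 9, and the difference was 2.70 ± 0.28 (edgeR adjusted p = 3.45e-05). RUP1, the other repressor, differed by 2.18 ± 0.15 (edgeR adjusted p = 1.11e-06). The ligase gene COP1 itself was at 44.5 to 50.4 CPM in uvr8-6 under UV-B and 38.5 to 44.4 CPM in uvr8-6 in white light, and 74.1 to 78.8 CPM in wild type under UV-B and 41 to 44 CPM in wild type in white light. That is a difference of 0.64 ± 0.11 (edgeR adjusted p = 0.00192). The cofactor genes of COP1 differed too, SPA4 by 1.13 ± 0.13 (edgeR adjusted p = 9.36e-05), SPA3 by 0.65 ± 0.16 (edgeR adjusted p = 0.0235) and SPA1 by 0.45 ± 0.13 (edgeR adjusted p = 0.0468), as did DET1, a light-signalling repressor gene, by 0.49 ± 0.12 (edgeR adjusted p = 0.0246). In this list 4 to 6 positive calls were made with 1 library left out and 3 without the 5 libraries high in FRO5. Of 11 other photoreceptor genes PHYB (0.49 ± 0.13, adjusted p = 0.0318), a red-light receptor, and PHOT2 (0.59 ± 0.15, adjusted p = 0.0272), a blue-light receptor, had a positive difference, and upper quartile scaling gave 0 positive and 1 negative call in that list.

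Among 10 transcription factor genes whose proteins are known to act with UVR8, 3 had a positive difference and none a negative one (median 0.00). HY5 was at 21.6, 16.5 and 19.7 CPM in uvr8-6 under UV-B and 17.9, 19.4 and 17.7 CPM in uvr8-6 in white light, against 73.6, 67 and 67.2 CPM in wild type under UV-B and 15.1, 22.7 and 14.6 CPM in wild type in white light. Only the wild-type UV-B libraries were high, and the difference was 1.92 ± 0.20 (edgeR adjusted p = 4.4e-05). HYH, its closest relative, differed by 1.29 ± 0.33 (edgeR adjusted p = 0.0301), with wild-type white-light replicate 2 at 40.5 CPM beside 17.6 and 20.1 CPM. MYB13, a MYB factor gene of flavonoid and growth control, differed by 3.03 ± 0.44 (edgeR adjusted p = 0.00068). Of 13 tested B-box factor genes, which encode zinc-finger proteins of light signalling, 5 had a positive difference (median 0.92). BBX22 was at 31.3, 34.4 and 34.1 CPM under UV-B and 26, 24.8 and 27.9 CPM in white light in uvr8-6. In wild type it was at 67, 86.9 and 71.2 CPM under UV-B and 26.4, 18.2 and 28.9 CPM in white light. The wild-type UV-B libraries did not overlap the rest, and the difference was 1.27 ± 0.22 (edgeR adjusted p = 0.00235). BBX32 differed by 2.45 ± 0.56 (edgeR adjusted p = 0.0161), BBX31 by 1.71 ± 0.47 (edgeR adjusted p = 0.0448), BBX24 by 0.97 ± 0.27 (edgeR adjusted p = 0.045) and BBX25 by 0.92 ± 0.14 (edgeR adjusted p = 0.000829). BBX21, known as an activator of HY5, did not pass (-0.45 ± 0.19, edgeR adjusted p = 0.196). With 1 library left out 2 to 7 B-box genes were called.

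In the PIF family, the growth-promoting bHLH factors, 2 of 11 members had a positive and 1 a negative difference (median 0.26). PIF7 (1.53 ± 0.26, adjusted p = 0.00216) and PIF8 (1.49 ± 0.15, adjusted p = 3.75e-05) were positive and PIF3 (-0.95 ± 0.23, adjusted p = 0.0235) negative. PIF4 was at 55, 89.7 and 58.2 CPM in uvr8-6 under UV-B and 142.6, 59.8 and 153.2 CPM in uvr8-6 in white light, against 38.3, 91.9 and 76.5 CPM in wild type under UV-B and 149.3, 62.1 and 168.3 CPM in wild type in white light. White-light replicate 2 of both genotypes was low for its group, UV-B and white-light libraries overlapped in both genotypes, and the difference had an interval of -1.27 to 1.12. Of 25 clock genes 3 were positive and 1 negative (median 0.42). With 1 library left out 3 to 6 were positive, and without the 5 libraries high in FRO5 6 were positive and 0 negative. The evening gene ELF4 differed by 1.59 ± 0.24 (edgeR adjusted p = 0.000993), RVE1 by 1.04 ± 0.16 (edgeR adjusted p = 0.00113), the F-box photoreceptor gene ZTL by 0.75 ± 0.11 (edgeR adjusted p = 0.00103) and LUX, an evening repressor gene, by -0.71 ± 0.16 (edgeR adjusted p = 0.0135). CCA1 did not pass (edgeR adjusted p = 0.052).

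Photoprotection came next. Of 8 light-harvesting-like genes, whose proteins dissipate excess light energy or help assemble photosystems, 7 had a positive difference (median 1.14) in the fit as reported and under all scalings tried, and 6 to 7 over single left-out libraries. ELIP1 (AT3G22840), an early light-induced protein gene whose G-box is printed above, was at 0.968, 1.09 and 1.73 CPM in uvr8-6 under UV-B and 0.892, 0.501 and 0.308 CPM in uvr8-6 in white light, against 170.8, 127.4 and 138.4 CPM in wild type under UV-B and 0.156, 0.49 and 0.261 CPM in wild type in white light. It had 97 reads in all in uvr8-6 under UV-B and 43 in white light, against 10295 in wild type under UV-B and 21 in white light. The difference was 7.73 ± 0.66 (edgeR adjusted p = 6.7e-06), and it was 7.25 to 8.31 over the alternatives. ELIP2 differed by 5.14 ± 0.54 (edgeR adjusted p = 4.52e-05), although its uvr8-6 libraries under UV-B (4.55 to 5.09 CPM) also lay above those in white light (1.46 to 2.67 CPM). SEP2 differed by 2.01 ± 0.14 (edgeR adjusted p = 1.37e-06), and PSBS1, the sensor of non-photochemical quenching, by 1.15 ± 0.23 (edgeR adjusted p = 0.00796). OHP1, OHP2 and SEP1 differed by 0.97 to 1.14 on the log2 scale.

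**Figure D4:**
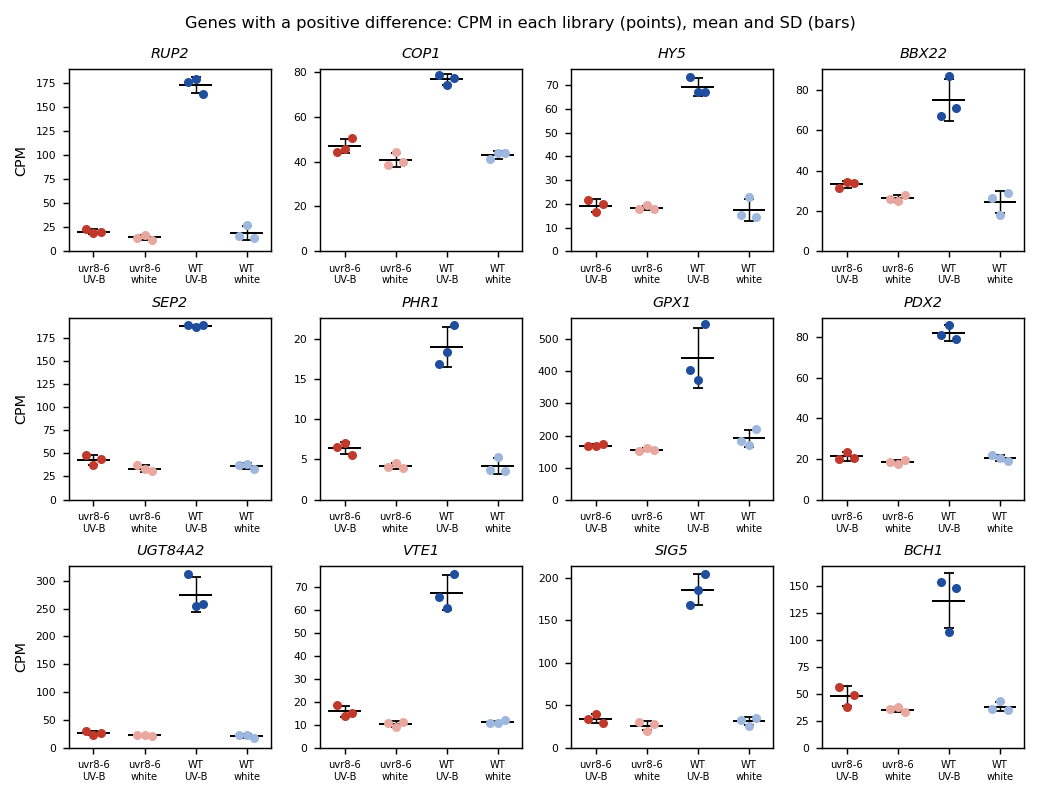
Each panel shows the CPM of 1 gene in the 3 libraries of uvr8-6 under UV-B, uvr8-6 in white light, wild type (WT) under UV-B and wild type in white light, with the mean and SD. In all 12 panels the wild-type UV-B points lie above the other 9. The lowest wild-type UV-B library was at 74.1 CPM for COP1 and at 163.3 CPM for RUP2, as examples.

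Repair of UV-B damage showed a narrower pattern. Of 15 photolyase and nucleotide excision repair genes 4 had a positive difference (median 0.03), and 3 of these 4 encode light-driven repair enzymes or their relatives. PHR1, the photolyase gene for cyclobutane dimers, was at 6.56, 7.03 and 5.56 CPM in uvr8-6 under UV-B and 3.99, 4.54 and 3.96 CPM in uvr8-6 in white light, against 16.9, 18.3 and 21.7 CPM in wild type under UV-B and 3.65, 5.35 and 3.52 CPM in wild type in white light. Its difference was 1.58 ± 0.31 (edgeR adjusted p = 0.00582). UVR3, the photolyase gene for 6-4 photoproducts, differed by 0.94 ± 0.18 (edgeR adjusted p = 0.00528), and CRY3, a photolyase-like cryptochrome gene, by 1.81 ± 0.33 (edgeR adjusted p = 0.00354). DDB2, which encodes a damage sensor, differed by 1.02 ± 0.18 (edgeR adjusted p = 0.00264). In the list of SOG1 targets and checkpoint genes, the DNA damage response of plants, the median was -0.43. SOG1 itself was the 1 called member of 18 (-0.45 ± 0.12, edgeR adjusted p = 0.0421), a share of 5.6% beside 6.6% of all genes. With 1 library left out 0 to 1 negative calls were made in that list, and 0 without the 5 libraries high in FRO5. BRCA1, a repair gene of that list, was at 14.3, 13.2 and 15.4 CPM under UV-B and 4.12, 4.83 and 5.31 CPM in white light in uvr8-6. In wild type it was at 7.13, 7.92 and 7.93 CPM under UV-B and 3.76, 3.92 and 4.43 CPM in white light. It rose in both genotypes (1.59 in uvr8-6 and 0.92 in wild type on the log2 scale), and the difference did not pass (edgeR adjusted p = 0.232).

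Antioxidant genes moved in both directions. Of 22 tested glutathione and antioxidant enzyme genes 4 had a positive and 1 a negative difference (median 0.13). GPX7, a chloroplast glutathione peroxidase gene, had 27 reads in all in uvr8-6 under UV-B and 7 in white light, against 2576 in wild type under UV-B and 11 in white light. Its difference of 5.92 ± 1.11 (edgeR adjusted p = 0.00472) rests on these few reads and lost its call without uvr8-6 white-light replicate 2 (edgeR adjusted p = 0.0739) or without the 5 libraries high in FRO5 (0.071). GPX1, whose product is also plastidic, was at 167.9, 165.7 and 172.8 CPM in uvr8-6 under UV-B and 151.3, 160.6 and 153.3 CPM in uvr8-6 in white light, against 405.8, 372.7 and 548.2 CPM in wild type under UV-B and 182.7, 169.6 and 220.7 CPM in wild type in white light. The difference was 1.09 ± 0.23 (edgeR adjusted p = 0.00953). Catalase genes parted, with CAT2 at 1.14 ± 0.19 (edgeR adjusted p = 0.00183) and CAT3 at -0.97 ± 0.24 (edgeR adjusted p = 0.0277). Of 16 tested genes of vitamin B6, C and E synthesis 7 had a positive difference (median 0.61), 6 to 7 over single left-out libraries. PDX2, a subunit of the vitamin B6 synthase, differed by 1.80 ± 0.12 (edgeR adjusted p = 1.15e-06), and its partner genes PDX1.3 and PDX1.1 by 1.51 ± 0.17 and 1.44 ± 0.25. VTE1, the tocopherol cyclase gene, was at 13.9 to 18.6 CPM in uvr8-6 under UV-B and 9.05 to 11.1 CPM in uvr8-6 in white light, and 60.8 to 75.7 CPM in wild type under UV-B and 10.6 to 11.9 CPM in wild type in white light. Its difference was 1.99 ± 0.19 (edgeR adjusted p = 2.52e-05). The ascorbate genes VTC1 and VTC2 differed by 0.69 ± 0.14 and 0.70 ± 0.18.

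The flavonol branch had the highest called share of the 37 lists, 92.3%. Of 13 tested early flavonoid and flavonol genes 12 had a positive difference (median 3.57), 11 to 12 with 1 library left out, 12 under each scaling and 12 without the 5 libraries high in FRO5. F3H (AT3G51240), a hydroxylase at the middle of the pathway, was at 14.8, 12.5 and 15.7 CPM in uvr8-6 under UV-B and 4.16, 8.01 and 5.19 CPM in uvr8-6 in white light, against 500.4, 447.0 and 489.0 CPM in wild type under UV-B and 4.23, 9.76 and 3.98 CPM in wild type in white light. The difference was 5.04 ± 0.43 (edgeR adjusted p = 6.95e-06). CHS, the first enzyme of the pathway, was at 85.3, 35.6 and 74.9 CPM in uvr8-6 under UV-B and 18.4, 42 and 17.7 CPM in uvr8-6 in white light. The second white-light library lay within the range of the UV-B libraries, and edgeR did not call CHS in uvr8-6 (adjusted p = 0.313). FLS1, which makes flavonols, showed the same overlap, with 18.3, 6.11 and 20.2 CPM under UV-B and 3.23, 11.4 and 3.42 CPM in white light in uvr8-6. Both differences were called (5.37 ± 0.79 and 5.27 ± 0.80). TT7 (flavonoid 3′-hydroxylase, 4.41 ± 0.25), CHI (3.67 ± 0.21), its non-catalytic relative CHIL (3.62 ± 0.36) and 4CL3 (3.57 ± 0.58) followed. Glycosylation genes of flavonols differed less, from 1.87 ± 0.50 for UGT73C6 to 3.00 ± 0.25 for UGT89C1, and RHM1, which supplies UDP-rhamnose, differed by 2.23 ± 0.16.

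Their regulators followed in part. Of 13 tested MYB, bHLH and WD40 regulator genes 4 had a positive difference (median 0.91). MYB12, an activator of flavonol genes, differed by 3.72 ± 0.26 (edgeR adjusted p = 1.37e-06), with 5.34 to 5.52 CPM in uvr8-6 under UV-B and 61.8 to 73 CPM in wild type under UV-B. MYB111 (2.70 ± 0.65, adjusted p = 0.0218) and TTG1 (0.49 ± 0.12, adjusted p = 0.0246) were called too, as was MYB11, which was at 0 to 0.0769 CPM in all uvr8-6 libraries, so that its fold is not given. With 1 library left out 1 to 3 positive calls were made. Of 9 tested anthocyanin genes 2 had a positive difference (median 1.28), GSTF12 (3.44 ± 0.75, adjusted p = 0.0126), a carrier, and SAT (1.97 ± 0.39, adjusted p = 0.00629), an acyltransferase gene. DFR, the first committed anthocyanin enzyme, was at 1.85, 3.02 and 2.14 CPM under UV-B and 0.509, 2.36 and 2.58 CPM in white light in uvr8-6. In wild type it was at 11.7, 1.85 and 4.27 CPM under UV-B and 2.76, 2.84 and 0.391 CPM in white light. Its wild-type UV-B libraries ranged from 1.85 to 11.7 CPM, and the interval of its difference, -0.94 to 3.46, allows no change and a large one.

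Upstream, 4 of 13 general phenylpropanoid genes had a positive and 2 a negative difference (median 0.23). PAL1 (1.86 ± 0.19, adjusted p = 3.45e-05) and PAL2 (1.85 ± 0.20, adjusted p = 5.33e-05), entry enzymes from phenylalanine, C4H (1.29 ± 0.16, adjusted p = 0.000234) and FAH1 (1.95 ± 0.23, adjusted p = 0.000142), which leads to sinapate, were positive. PAL4 (-0.62 ± 0.14, adjusted p = 0.0138) and 4CL5 (-0.74 ± 0.19, adjusted p = 0.0317) were negative, so members of 1 enzyme family went opposite ways. Of 8 sinapate ester genes, which make other sunscreens of young seedlings, 4 had a positive difference (median 1.01). UGT84A1 (AT4G15480) was at 0.842, 0.492 and 0.524 CPM in uvr8-6 under UV-B and 0.467, 0.537 and 0.538 CPM in uvr8-6 in white light, against 57.6, 50.5 and 58.3 CPM in wild type under UV-B and 0.365, 0.196 and 0.391 CPM in wild type in white light. Every uvr8-6 library was under 1 CPM, and the difference was 7.14 ± 0.61 (edgeR adjusted p = 6.95e-06). UGT84A2 differed by 3.43 ± 0.17 (edgeR adjusted p = 6.84e-08), SNG1, the sinapoylmalate synthase gene, by 0.85 ± 0.17 (edgeR adjusted p = 0.00771) and SCPL9 by 1.55 ± 0.36 (edgeR adjusted p = 0.0192). Without the 5 libraries high in FRO5 2 positive and 1 negative call were made in this list.

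Chloroplast genes followed in 4 lists. Of 17 carotenoid and xanthophyll genes 7 had a positive difference (median 0.71), 6 to 7 over single left-out libraries. BCH1, a carotene hydroxylase gene, was at 38.1 to 56.3 CPM in uvr8-6 under UV-B and 33.1 to 37.6 CPM in uvr8-6 in white light, and 107.3 to 154.2 CPM in wild type under UV-B and 35 to 43.3 CPM in wild type in white light. The difference was 1.41 ± 0.23 (edgeR adjusted p = 0.00182). NPQ1 (1.04 ± 0.22, adjusted p = 0.00894) and ABA1 (1.07 ± 0.26, adjusted p = 0.0263), the enzymes of the xanthophyll cycle, PDS3, ZDS, LYC and CCD1 made up the rest, at 0.71 to 0.85 on the log2 scale for the last 4. Of 11 sigma factor and greening regulator genes 4 were positive (median 0.55). SIG5, a plastid transcription factor gene of light stress, was at 34.3, 40.3 and 28.7 CPM in uvr8-6 under UV-B and 30.1, 19.8 and 27.8 CPM in uvr8-6 in white light, against 168.4, 185.2 and 204.5 CPM in wild type under UV-B and 33.1, 26.2 and 35.5 CPM in wild type in white light. The difference was 2.14 ± 0.23 (edgeR adjusted p = 4.52e-05). GATA22 differed by 1.46 ± 0.32 (edgeR adjusted p = 0.0116), SIG2 by 0.69 ± 0.19 (edgeR adjusted p = 0.0466) and SIG3 by 0.63 ± 0.17 (edgeR adjusted p = 0.0347), and 2 to 4 positive calls were made with 1 library left out. Of 26 photosystem and antenna genes 3 were positive (median 0.32), LHCB7 (1.99 ± 0.25, adjusted p = 0.000213), LHCB4.3 (0.97 ± 0.24, adjusted p = 0.0265) and LHCA5 (0.76 ± 0.18, adjusted p = 0.0235), and 1 to 3 positive calls were made with 1 library left out and over the scalings. Of 20 chlorophyll synthesis genes 2 were negative and none positive (median 0.24), and both encode protochlorophyllide oxidoreductases.

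PORA (AT5G54190), the form made in the dark, was at 7.07, 12 and 6.81 CPM in uvr8-6 under UV-B and 22.5, 11 and 16.8 CPM in uvr8-6 in white light, against 0.173, 0.764 and 0.741 CPM in wild type under UV-B and 15.1, 9.32 and 15.4 CPM in wild type in white light. Every wild-type UV-B library was under 1 CPM and every other library above 6 CPM, and the difference was -3.60 ± 0.53 (edgeR adjusted p = 0.000789). PORB, its counterpart in lit seedlings, was at 309.3 to 400.3 CPM in uvr8-6 under UV-B and 372.8 to 509.7 CPM in uvr8-6 in white light, and 106.8 to 135.9 CPM in wild type under UV-B and 297.4 to 453.8 CPM in wild type in white light. The difference was -1.45 ± 0.25 (edgeR adjusted p = 0.00256).

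Auxin and cell wall genes with a called difference were mostly negative. Of 31 tested GH3, auxin synthesis and transport genes 5 had a negative difference and none a positive one (median -0.14), and 4 to 7 over single left-out libraries, where 1 positive call also occurred. WAG2 (AT3G14370), whose protein kinase acts on auxin efflux carriers, was at 26.4, 22 and 25.2 CPM in uvr8-6 under UV-B and 24.6, 20.2 and 25.9 CPM in uvr8-6 in white light, against 3.71, 1.57 and 2.05 CPM in wild type under UV-B and 20.2, 15.4 and 25.3 CPM in wild type in white light. Only wild type under UV-B was low, and the difference was -3.12 ± 0.33 (edgeR adjusted p = 4.82e-05). WAG1, its close relative, differed by -1.76 ± 0.25 (edgeR adjusted p = 0.000575). The auxin-conjugating enzyme genes GH3.3 (-3.18 ± 0.53, adjusted p = 0.00187), GH3.2 (-1.55 ± 0.34, adjusted p = 0.0136) and GH3.5 (-1.19 ± 0.30, adjusted p = 0.0257) had no called response in uvr8-6 (edgeR adjusted p = 0.601, 0.584 and 0.899). Of 25 Aux/IAA genes 1 was called and it was positive, IAA28 (1.01 ± 0.21, edgeR adjusted p = 0.01), a share of 4.0% beside 6.6% of all genes. In that list 1 to 2 positive and 0 to 2 negative calls were made with 1 library left out. Without the 5 libraries high in FRO5 there were 0 positive and 2 negative ones. IAA19 fell in wild type (-2.46), but its difference did not pass (edgeR adjusted p = 0.0978). In uvr8-6 it was at 29.8, 44.5 and 31.8 CPM under UV-B and 82.7, 28.5 and 70.2 CPM in white light, and in wild type at 5.01, 11.6 and 8.02 CPM under UV-B and 64.1, 21.8 and 49.9 CPM in white light. Replicate 2 of both white-light groups lay below all 3 uvr8-6 UV-B libraries. Of 29 SAUR genes 2 were positive (SAUR62 and SAUR14, with 0 to 2 positive calls over left-out libraries and over scalings), in a family whose near-identical copies can share reads, and edgeR called 0 of 18 growth bHLH and HD-ZIP II factor genes (median -0.31), with 2 at an unadjusted p under 0.05 and 0 called by DESeq2 or limma-voom.

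Of 30 expansin and xyloglucan enzyme genes, which loosen cell walls, 5 had a negative and 2 a positive difference (median -0.23). EXPB1 was at 14.3, 13 and 13.2 CPM in uvr8-6 under UV-B and 22.3, 15.3 and 21.3 CPM in uvr8-6 in white light, against 3.45, 5.03 and 3.75 CPM in wild type under UV-B and 18.2, 15.9 and 18.3 CPM in wild type in white light. The difference was -1.56 ± 0.24 (edgeR adjusted p = 0.00106). XTH15 (-1.78 ± 0.47, adjusted p = 0.0349), XTH19 (-1.47 ± 0.29, adjusted p = 0.00733), XTH8 (-1.17 ± 0.20, adjusted p = 0.00233) and EXPA3 (-0.79 ± 0.21, adjusted p = 0.0373) were negative too, while EXPB3 (1.15 ± 0.28, adjusted p = 0.0232) and EXPA1 (0.73 ± 0.19, adjusted p = 0.0293) were positive. Over the scalings 0 to 2 positive and 5 negative calls were made, and 3 to 5 negative calls with 1 library left out. In the gibberellin list GA2OX8, a gibberellin-inactivating enzyme gene, was positive (2.89 ± 0.60, adjusted p = 0.00952), as was GA3OX2 (5.45 ± 1.16, adjusted p = 0.011), a gibberellin-activating one at 0.168 to 0.202 CPM in uvr8-6 under UV-B and 2.53 to 5.57 CPM in wild type under UV-B, while RGL1 (-0.98 ± 0.25, adjusted p = 0.0331), a DELLA repressor gene, GASA6 (-0.89 ± 0.17, adjusted p = 0.0046) and GA2OX6 (-0.61 ± 0.17, adjusted p = 0.0453) were negative. These are 2 positive and 3 negative of 20 tested (median -0.4). Without the 5 libraries high in FRO5 0 positive and 1 negative call were made there. Of 17 brassinosteroid genes the synthesis gene BR6OX1 was negative (-1.07 ± 0.26, adjusted p = 0.0236). Of 22 cytokinin genes the cytokinin-activating enzyme genes LOG1 (1.18 ± 0.24, adjusted p = 0.00837) and LOG5, described further on, were called, in opposite directions.

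Stress, defence and surface lists had few called members each. Of 9 proline genes 3 were positive (median -0.02), P5CS2 (0.95 ± 0.15, adjusted p = 0.00118) for synthesis, ERD5 (1.49 ± 0.19, adjusted p = 0.000244) for breakdown and PROT3 (1.48 ± 0.32, adjusted p = 0.0112) for transport, and 3 positive calls were made under every scaling and with each library left out. Of 12 heat genes DREB2A was positive (1.80 ± 0.24, edgeR adjusted p = 0.000388). Of 16 cold genes KIN1 was positive (3.23 ± 0.87, edgeR adjusted p = 0.0404), and of 13 salicylic acid genes PAD4 (0.71 ± 0.19, edgeR adjusted p = 0.039). With 1 library left out 0 to 2 positive calls were made in the cold list and 0 to 1 in the salicylic acid list. Over the scalings both lists had 0 to 1, and without the 5 libraries high in FRO5 both had 0. Of 23 jasmonate genes JAZ9 was positive (1.03 ± 0.21, edgeR adjusted p = 0.00762) and AOC4 negative (-1.26 ± 0.14, edgeR adjusted p = 9.7e-05). Of 15 wax genes CER3 was positive (0.99 ± 0.27, adjusted p = 0.0388) and WSD1 (-2.77 ± 0.69, adjusted p = 0.0263) and CER4 (-2.57 ± 0.64, adjusted p = 0.0277) negative, and with 1 library left out 0 to 1 positive and 0 to 2 negative calls were made. Of 19 glucosinolate genes UGT74C1 was positive (1.13 ± 0.24, adjusted p = 0.0104) and CYP83B1 negative (-0.76 ± 0.20, adjusted p = 0.034). Of 19 iron uptake and nitrate genes the nitrate transporter gene NRT1.1 was negative. It was at 346.4, 429.6 and 320.8 CPM in uvr8-6 under UV-B and 449.3, 375.7 and 385.9 CPM in uvr8-6 in white light, against 146.0, 177.7 and 168.6 CPM in wild type under UV-B and 409.1, 370.9 and 362.6 CPM in wild type in white light, a difference of -1.07 ± 0.20 (edgeR adjusted p = 0.00398). For the difference edgeR, DESeq2 and limma-voom called 0 of 19 suberin genes, with 3 at an unadjusted p under 0.05 in edgeR, while 7 rose in uvr8-6 (0.85% of all genes) and 9 in wild type (16.1% of all genes).

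ABCG6, a transporter gene of suberin export, rose in both genotypes. It was at 34.3, 77.4 and 36.3 CPM in uvr8-6 under UV-B and 8.53, 8.69 and 8.73 CPM in uvr8-6 in white light, against 49.8, 51.6 and 32 CPM in wild type under UV-B and 9.86, 8.14 and 8.99 CPM in wild type in white light. UV-B libraries of both genotypes lay above all white-light libraries, and the interval of the difference was -1.13 to 0.71, which reaches beyond 2-fold below 0. UV-B replicate 2 of uvr8-6, the library with the most residual seed RNA, was its highest, and without that library the difference was 0.24 ± 0.33 (edgeR adjusted p = 0.762). Among genes called and changed at least 2-fold the same way in both genotypes, ECS1, AT5G61820, scpl28, GSTU8 and PIF6 were the 5 whose interval stayed nearest to 0 at its farther end. GSTU8, a glutathione transferase gene, was at 47.6, 60.9 and 45.1 CPM under UV-B and 21.1, 27.7 and 24 CPM in white light in uvr8-6. In wild type it was at 49.3, 56.3 and 41.5 CPM under UV-B and 21.9, 27.9 and 19.1 CPM in white light. Its difference was 0.02 ± 0.27, with an interval of -0.57 to 0.61, inside 2-fold in either direction. ECS1 had an interval of -0.84 to 0.56 and AT5G61820 one of -0.66 to 0.48.

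**Figure D5:**
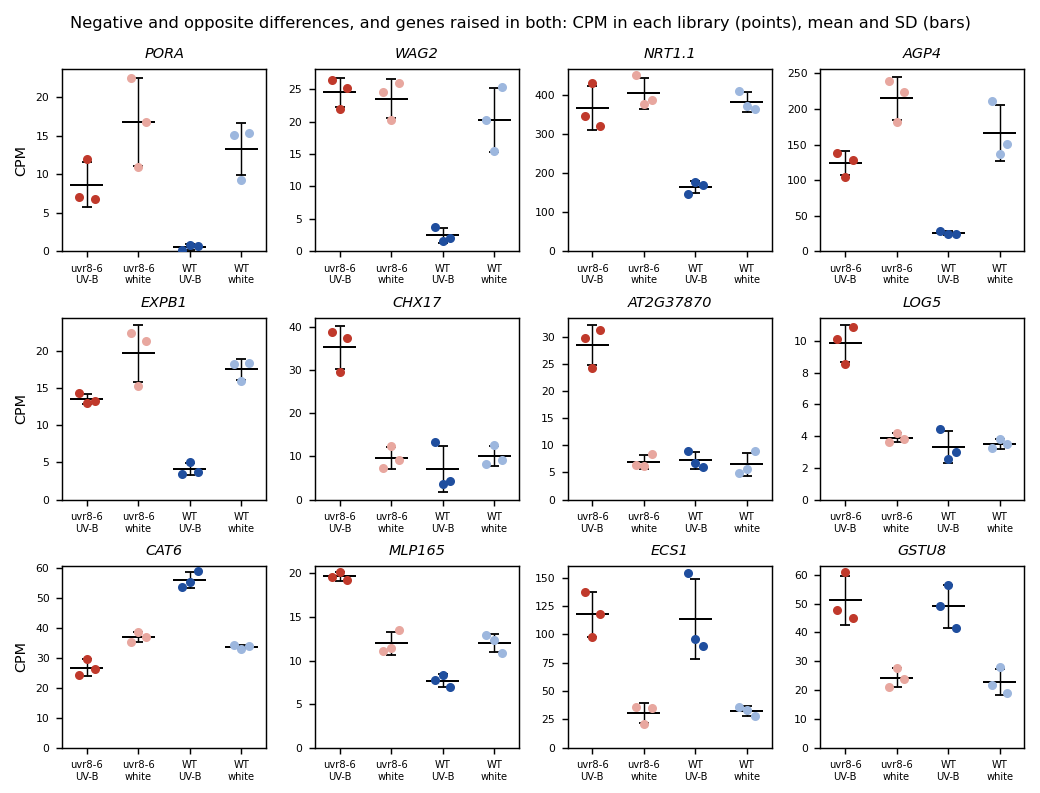
Each panel shows the CPM of 1 gene in the 3 libraries of uvr8-6 under UV-B, uvr8-6 in white light, wild type (WT) under UV-B and wild type in white light, with the mean and SD. PORA, WAG2, NRT1.1, AGP4 and EXPB1 are lowest in wild type under UV-B, CHX17, AT2G37870 and LOG5 are highest in uvr8-6 under UV-B, CAT6 and MLP165 move in opposite directions, and ECS1 and GSTU8 are high under UV-B in both genotypes.

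Some genes were called in uvr8-6 and not in wild type. EdgeR called 233 genes in uvr8-6, 1.12% of those tested, and 5700 in wild type, 27.4%. Of the 21 genes with a called difference that were called in uvr8-6 alone, 18 rose there and 3 fell. AT2G37870, annotated as a lipid-transfer protein gene, was at 29.8, 24.2 and 31.2 CPM in uvr8-6 under UV-B and 6.28, 6.15 and 8.38 CPM in uvr8-6 in white light, against 9.03, 6.68 and 5.97 CPM in wild type under UV-B and 4.85, 5.69 and 8.86 CPM in wild type in white light. The uvr8-6 UV-B libraries stood alone above the other 9, and the difference was -1.89 ± 0.30 (edgeR adjusted p = 0.00156). CHX17, a cation exchanger gene, was at 38.7, 29.6 and 37.5 CPM under UV-B and 7.39, 12.5 and 9.12 CPM in white light in uvr8-6. In wild type it was at 13.3, 3.58 and 4.4 CPM under UV-B and 8.19, 12.6 and 9.19 CPM in white light. It rose in uvr8-6 (1.86, edgeR adjusted p = 0.0219) and its difference was -2.36 ± 0.51 (edgeR adjusted p = 0.0116). LOG5, a cytokinin-activating enzyme gene, was at 8.57 to 10.9 CPM in uvr8-6 under UV-B and 3.65 to 4.19 CPM in uvr8-6 in white light, and 2.53 to 4.45 CPM in wild type under UV-B and 3.23 to 3.83 CPM in wild type in white light. The difference was -1.42 ± 0.26 (edgeR adjusted p = 0.00434). The differences of these 3 were called under all 24 alternatives. The rise in uvr8-6 itself was called under 24 for AT2G37870 and LOG5 and under 20 for CHX17, whose adjusted p reached 0.134. AT3G23510, a cyclopropane fatty acid synthase gene, fell in uvr8-6 to 38.9, 77.7 and 38.1 CPM under UV-B, against 152.8, 114.2 and 145.6 CPM in white light, and was at 131.6 to 159.7 CPM in wild type under UV-B and 135.8 to 161.6 CPM in wild type in white light. Its difference (1.42 ± 0.38, adjusted p = 0.0373) was called under 12 of 24 alternatives and its fall in uvr8-6 under 19, and UV-B replicate 2 of uvr8-6 stood apart from the other 2. Without that replicate the difference was 1.80 (edgeR adjusted p = 0.00372). Over single left-out libraries the set held 6 to 24 genes, and 56 without the 5 libraries high in FRO5.

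Genes of the set outside the naming rule, singled out after their values were seen, included CYP81D11, a cytochrome P450 gene known to respond to reactive chemicals, with 47.2 to 65.8 CPM in uvr8-6 under UV-B and 18.8 to 20.4 CPM in uvr8-6 in white light, and 19.3 to 24.3 CPM in wild type under UV-B and 17.2 to 19.6 CPM in wild type in white light. Its difference was -1.27 ± 0.20 (edgeR adjusted p = 0.00158). GRP3S differed by -1.41 ± 0.26 (edgeR adjusted p = 0.00359), PRN by -1.09 ± 0.24 (edgeR adjusted p = 0.0148) and BGLU11 by -1.22 ± 0.27 (edgeR adjusted p = 0.0132). Called responses in opposite directions were found for 2 genes. This count was 0 under 5 of the 12 single left-out libraries (each uvr8-6 white-light replicate and uvr8-6 UV-B replicates 1 and 3), 6 without wild-type UV-B replicate 1 and 10 by DESeq2. CAT6, an amino acid transporter gene, was at 24.3, 29.8 and 26.3 CPM in uvr8-6 under UV-B and 35.4, 38.8 and 37.2 CPM in uvr8-6 in white light, against 53.9, 55.5 and 59.1 CPM in wild type under UV-B and 34.4, 33.2 and 34 CPM in wild type in white light. It fell in uvr8-6 (-0.47) and rose in wild type (0.73), a difference of 1.20 ± 0.14 (edgeR adjusted p = 0.000128). MLP165 was at 19.6, 20.2 and 19.2 CPM under UV-B and 11.1, 11.4 and 13.5 CPM in white light in uvr8-6. In wild type it was at 7.82, 8.36 and 6.98 CPM under UV-B and 12.9, 12.4 and 10.9 CPM in white light. It rose in uvr8-6 (0.71) and fell in wild type (-0.64), a difference of -1.35 ± 0.21 (edgeR adjusted p = 0.00113), which was lost without the 5 libraries high in FRO5 (edgeR adjusted p = 0.0518). The response in uvr8-6 was called under 14 of 24 alternatives for CAT6 and under 17 for MLP165.

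Among the 41 genes called in both genotypes with a larger change in wild type, the median log2 response in uvr8-6 was 35.1% of the wild-type one for the 34 that rose and 48.0% for the 7 that fell. SQE3, a squalene epoxidase gene of sterol synthesis, was at 60.8, 46.5 and 53.6 CPM in uvr8-6 under UV-B and 29, 40.7 and 29.4 CPM in uvr8-6 in white light, against 342.9, 368.1 and 332.7 CPM in wild type under UV-B and 41.3, 51.3 and 38.4 CPM in wild type in white light. The difference was 2.30 ± 0.22 (edgeR adjusted p = 1.88e-05), and the response in uvr8-6 was 0.70 ± 0.16 (edgeR adjusted p = 0.0444). AT5G42760 (2.54 ± 0.30, adjusted p = 0.000142), AT2G32550 (2.27 ± 0.35, adjusted p = 0.00122) and AT1G57770 (2.19 ± 0.27, adjusted p = 0.00017) rose in both genotypes too. AGP4, an arabinogalactan protein gene of the cell surface, was at 105.0 to 137.5 CPM in uvr8-6 under UV-B and 181.8 to 239.5 CPM in uvr8-6 in white light, and 24.4 to 29 CPM in wild type under UV-B and 136.4 to 211.2 CPM in wild type in white light. It fell in uvr8-6 by 0.80 and in wild type by 2.68 on the log2 scale, with a difference of -1.88 ± 0.23 (edgeR adjusted p = 0.000173).

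Beyond the lists, the largest positive difference belonged to AT2G22590, annotated as a UDP-glycosyltransferase gene. It had 13 reads in all in uvr8-6 under UV-B and 5 in white light, against 4652 in wild type under UV-B and 4 in white light, or 64, 53.2 and 80.4 CPM in wild type under UV-B. The fitted difference of 8.74 ± 1.57 (edgeR adjusted p = 0.00339) depends on those few reads, and it lost its call without uvr8-6 white-light replicate 3 (edgeR adjusted p = 0.201). AT5G62210, whose window is printed above, had 41 reads in uvr8-6 under UV-B and 31 in white light, against 4039 in wild type under UV-B and 26 in white light (6.83 ± 0.61, adjusted p = 9.5e-06). AT2G23910 (5.46 ± 0.41, adjusted p = 2.25e-06), AT5G17040 (5.25 ± 0.65, adjusted p = 0.000205), annotated as a UDP-glycosyltransferase gene, and AT1G66540 (4.56 ± 0.53, adjusted p = 0.000119), a P450-like gene, completed the 12 largest. On the negative side AGP30 (-4.12 ± 1.00, adjusted p = 0.0236), an arabinogalactan protein gene, was called under 16 of 24 alternatives. In uvr8-6 it was at 8.88, 1.69 and 8.3 CPM under UV-B, so the library with the most residual seed RNA was the low one of its group. ADS4, a desaturase-like gene, was at 7.07, 9.28 and 9.03 CPM in uvr8-6 under UV-B and 5.9, 9.26 and 7.62 CPM in uvr8-6 in white light, against 1.04, 0.965 and 0.872 CPM in wild type under UV-B and 8.92, 7.95 and 7.76 CPM in wild type in white light. Its difference was -3.24 ± 0.29 (edgeR adjusted p = 1.07e-05), and it was called under all 24 alternatives. AT4G00910 (-3.46 ± 0.40, adjusted p = 0.000122), AT5G19890 (-3.04 ± 0.61, adjusted p = 0.00715), annotated as a peroxidase gene, AT5G37950 (-2.81 ± 0.51, adjusted p = 0.00358), AT5G46890 (-2.40 ± 0.34, adjusted p = 0.000538) and AT2G28780 (-2.25 ± 0.26, adjusted p = 0.000123) kept theirs too. AT5G46890 has near-identical neighbours that can share its reads. For AT5G19890 the fitted response was 1.59 in uvr8-6, not called (edgeR adjusted p = 0.0853), and -1.45 in wild type. In uvr8-6 it was at 28.4, 52.2 and 24.3 CPM under UV-B and 13, 9.26 and 12.5 CPM in white light. The 4 largest differences among genes called in neither genotype were those of MYB27 (-1.74 ± 0.48, adjusted p = 0.0421), GSTF7 (-1.52 ± 0.40, adjusted p = 0.0364), AT4G00880 (1.41 ± 0.39, adjusted p = 0.0461) and AT1G12070 (1.16 ± 0.27, adjusted p = 0.02), which were called under 15, 13, 10 and 17 of 24 alternatives.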

How the data were processed

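Per the labels, stranded mRNA libraries of whole seedlings were read from 1 end over 100 bp. The deposited count table holds raw read counts per gene, made by the authors and not scaled. The submitters' processing notes list, with no roles, STAR 2.5.3a, HTSeq 0.9.1, FastQC 0.11.5, edgeR 3.22.3 and the build TAIR10. A second table, normalized signal deposited by the authors, supplied only its gene set, for 1 alternative. Of 33602 genes 20833 passed filterByExpr. One negative binomial model with a term for each of 5 groups was fitted to 15 libraries (10 residual degrees of freedom) with TMM scaling, and contrasts were tested two-sided in R 4.3.3 by the quasi-likelihood test of edgeR 4.0.16. A call needed a Benjamini-Hochberg adjusted p under 0.05 over all tested genes. A value after ± is a standard error of the fit, and intervals are 95%. Alternatives used DESeq2 1.42.0, limma 3.58.1 and sva 3.50.0. The model was tested on simulated data.

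Named genes were UVR8, the 12 largest called differences in each direction and the 4 largest of each response pattern with at least 5 CPM in the highest group, members of the 37 lists, and the 5 narrowest intervals around 0. The lists and the genes described were chosen with earlier results of these data known. Replicate numbers paired the white-light libraries of the genotypes (correlations of deviations 0.33, 0.60 and 0.39), where a block gave 3 calls, as without it. They did not pair the UV-B with the white-light libraries. Gene names came from RefSeq. Upstream windows were read from RefSeq's TAIR10.1 genome and annotation, not from the authors' annotation.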

Additional observations from a re-analysis of the deposited data

Results flagged for a closer look

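The test of the difference between wild type and uvr8-6 itself picked out 1375 genes whose UV-B responses differed between the genotypes. Among them, 21 genes were called in uvr8-6 alone and 2 were called in both genotypes in opposite directions. The count of opposite responses was 0 under 5 of the 12 single left-out libraries and at most 6 under the others. Of the first, AT2G37870 had a difference of -1.89, CHX17 of -2.36 and LOG5 of -1.42 on the log2 scale, each with a rise in uvr8-6, and AT3G23510 had a difference of 1.42, with a fall in uvr8-6. The pair with opposite responses was MLP165, with a difference of -1.35, and CAT6, with one of 1.20. UV-B replicate 2 of uvr8-6 was the library apart from its group for AT3G23510, and without it the difference was 1.80.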

How the results depend on the processing

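The count of called differences was 1375. It was 2156 with 1 surrogate variable and 907 without the 5 libraries high in FRO5, and 877 to 1247 with 1 library left out, with the lowest value without uvr8-6 white-light replicate 3. The replicate block gave 1759, although replicate numbers did not pair UV-B with white-light libraries (correlations as low as -0.32). For the response in uvr8-6, 233 genes were called, against 640 by DESeq2, 386 with 1 surrogate variable and 367 under the replicate block. With 1 library left out that count ran from 43 (without uvr8-6 white-light replicate 1) to 393 (without uvr8-6 UV-B replicate 2), and leaving out uvr8-6 white-light replicate 3 gave 49, UV-B replicate 3 gave 100 and UV-B replicate 1 gave 120. In white light 6 genes were called, in place of 3, with DESeq2 and without the libraries high in FRO5. The cause of these changes was not tested. The other 83 counts stayed within 1.5 times of those reported. For the genes with a called difference that were named by size or pattern, 813 values under the alternatives kept direction and call, and the other 75 kept the direction and lost the call. With 3 libraries a group, the median 95% interval of a difference reached 0.47 to either side on the log2 scale, so a difference inside that width could not be told from 0 for a typical gene.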

Other observations

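Gene families were grouped by words in their annotated product names after the values were seen, so their counts describe these libraries only. The words were matched with their letter case and other spellings were not. Any gene with the word in its name was taken in, so a count need not cover a whole family or that family alone. Among all tested genes 4.88% had a positive and 1.72% a negative difference. Of 114 tested UDP-glycosyltransferase genes, whose products attach sugars to small molecules, 16 had a positive and 5 a negative difference. Of 53 lipid-transfer protein genes 2 were positive and 7 negative, of 44 arabinogalactan protein genes 1 was positive and 7 negative, and of 51 pectin methylesterase and inhibitor genes 0 were positive and 5 negative. The called share of these 4 families was 18.42%, 16.98%, 18.18% and 9.8%, in the order given, beside 6.6% of all genes. Methionine sulfoxide reductase genes, which encode repair enzymes for oxidised proteins, went both ways, with 4 positive and 2 negative of 14. MSRB6 (3.68), MSRB1 (1.62), MSRB2 (0.93) and PMSR1 (0.86) were positive and MSRB7 (-1.78) and MSRB9 (-1.95) negative on the log2 scale, and MSRB7 and MSRB9 have similar neighbours that can share reads. Genes with ribosomal protein in lower case in the name numbered 95, of which edgeR, DESeq2 and limma-voom called 0 (unadjusted p under 0.05 for 6 in edgeR), beside 6.6% of all genes. Names written with a capital were not counted, so the 0 does not cover the whole family. Genes matched by histone words in the name, which need not encode histones, numbered 74. Of these edgeR and limma-voom called 0 and DESeq2 1 (unadjusted p under 0.05 for 4 in edgeR). Of 23 genes with pentatricopeptide in lower case in the name 2 were positive and 0 negative (8.7% called). Of 151 genes with ubiquitin in lower case in the name, whatever their function, 2 were positive and 2 negative (2.65%).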
